A study of Mus musculus and Acomys cahirinus with 16 samples.

Results

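Transcript levels of 10 genes that mark tissue macrophages were followed in skin from 2 rodents, Mus musculus, the laboratory mouse, and Acomys cahirinus, a spiny mouse from Africa. The genes were chosen by symbol and grouped by role: Adgre1, Csf1r and Cd68 as pan-macrophage genes, Cd163, Mrc1 and Lyve1 as genes of resident macrophages, and Arg1, Nos2, Trem2 and Spp1 as genes of activated macrophages. All 10 were found in the count table of each species, 1 row per gene, among 18131 symbols that the tables share. All 10 also passed the filter on low counts in each species.

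Per the labels there were 4 groups of 4 samples: untreated mouse skin, mouse skin given DMBA/TPA, untreated spiny mouse skin and spiny mouse skin given DMBA/TPA. The treated columns of the tables carry the treated libraries' code. The untreated columns carry a code, AC, that no label explains, and were matched by species letter and sample number, with AC left for the untreated samples; the column of untreated mouse replicate 2 has a further suffix of unknown meaning. Every comparison with untreated skin rests on this match. The series' design text describes another experiment, and the sample labels were followed. DMBA (dimethylbenzanthracene) is a mutagenic carcinogen and TPA is an inflammatory phorbol ester, used in sequence to raise skin tumours in rodents. Strain, sex, age, doses, the interval from treatment to sampling and whether a treated sample held tumour tissue are not given in the sources used here. The series title concerns resistance of spiny mice to DMBA/TPA carcinogenesis. No label says whether the 4 samples of a group came from 4 animals, so p-values measure the spread between these samples.

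Macrophages are phagocytes that settle in the dermis before birth or arrive later as blood monocytes. Their survival depends on CSF1R, the receptor for the cytokines CSF1 and IL-34. Skin macrophages at rest carry scavenger and endocytic receptors such as CD163 and the mannose receptor MRC1. During inflammation or repair they can turn on arginase 1, which breaks arginine down to ornithine and urea, or inducible nitric oxide synthase, which turns the same amino acid into nitric oxide.

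Promoter sequences were at hand for 5 of the 10 genes (Cd68, Cd163, Mrc1, Trem2 and Spp1), from RefSeq on mouse build GRCm38.p6. The 250 bases before the start of Cd68, Mrc1 and Cd163 are shown because these genes had the lowest adjusted p among those that rose in treated spiny mouse skin. They are sequences of the laboratory mouse, written 5′ to 3′ on the strand of the gene. Capitals mark GAGGAA or its reverse complement TTCCTC, the core bound by the myeloid factor PU.1, and TGAGTCA or TGACTCA, the site of AP-1, a factor complex that TPA activates.
Cd68 (chr11:69666171-69666420, minus strand): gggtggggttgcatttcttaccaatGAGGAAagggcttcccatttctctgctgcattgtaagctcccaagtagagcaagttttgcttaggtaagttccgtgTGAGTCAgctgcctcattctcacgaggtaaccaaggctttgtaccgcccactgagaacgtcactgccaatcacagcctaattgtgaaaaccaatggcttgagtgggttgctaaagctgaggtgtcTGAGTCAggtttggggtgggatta
Mrc1 (chr2:14229164-14229413, plus strand): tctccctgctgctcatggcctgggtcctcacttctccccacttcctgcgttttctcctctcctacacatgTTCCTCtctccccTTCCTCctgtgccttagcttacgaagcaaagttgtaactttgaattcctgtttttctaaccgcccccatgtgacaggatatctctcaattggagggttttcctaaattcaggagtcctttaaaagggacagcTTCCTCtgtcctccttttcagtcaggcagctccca
Cd163 (chr6:124304401-124304650, plus strand): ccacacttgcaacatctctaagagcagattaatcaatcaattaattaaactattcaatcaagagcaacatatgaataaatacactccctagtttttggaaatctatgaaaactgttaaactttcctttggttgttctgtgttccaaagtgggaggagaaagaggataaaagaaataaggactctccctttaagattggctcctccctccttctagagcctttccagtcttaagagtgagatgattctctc

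The Cd68 promoter held 1 PU.1 core and 2 AP-1 sites, at bases -225 to -220, -149 to -143 and -24 to -18 from the start. The Mrc1 promoter held 3 PU.1 cores, all on the opposite strand, with the nearest at bases -35 to -30. The Cd163 window held no match to any motif searched. Trem2 and the first of 2 listed starts of Spp1 held 1 PU.1 core each. Among 32851 mouse promoter windows of the same length, 23.3% held the PU.1 core and 4.46% an AP-1 site on either strand. The E-box CACGTG (6.02% of windows) and the kappa-B consensus (7.25%) were also searched, and neither was found in the windows of these 5 genes. A match is a description of letters, and no binding was measured.

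Each sample had between 19608787 and 30561256 counts. Levels are CPM, library-scaled counts after TMM normalization, and the lowest level that 3 counts could show was 0.0982 to 0.153 CPM. The keratinocyte genes, which mark epidermis, summed to at least 6500 CPM in every sample. Some libraries stood apart in tissue content. Untreated mouse replicate 1 held 684 CPM of 8 hepatocyte transcripts, against 6.65 to 7.06 CPM in the other untreated mouse samples. Transcripts of growing (anagen) hair follicles summed to 2265 CPM in untreated mouse replicate 2, against 16 to 42.2 CPM in the other untreated mouse samples, and to 20024 to 22001 CPM in treated mouse skin. In spiny mouse the same transcripts ranged from 1104 to 11189 CPM untreated and from 194 to 3251 CPM treated, with overlap. The counts of macrophage genes called in mouse and of species differences are therefore also given without untreated mouse replicates 1 and 2. For single genes and lists this is done only where stated.

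In mouse skin 4 of the 10 genes passed the test between treated and untreated samples (edgeR quasi-likelihood test, Benjamini-Hochberg adjusted p under 0.05). Arg1 rose, and Adgre1, Csf1r and Nos2 fell. The test called 61.2% of all 19740 mouse genes, 25.9% higher and 35.3% lower, so the share called among the macrophage genes was below that of all genes. Of the calls over all mouse genes 42.4% were higher, and 30.5% and 28.6% with upper-quartile scaling and library size alone. The 10 genes' median log2 fold change was -0.32, beside -0.15 over all mouse genes. In spiny mouse skin 7 of the 10 genes passed. Adgre1, Cd68, Cd163, Mrc1 and Lyve1 rose, and Arg1 and Nos2 fell. Here 55.1% of 14833 genes were called, 28.2% higher and 26.9% lower. The median log2 fold change of the 10 genes was 0.79, beside -0.01 over all spiny mouse genes. A rise or fall in bulk skin can reflect more or fewer cells of a type or more or less RNA per cell, and these cannot be told apart.

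The species difference, tested as the interaction of species and treatment, was called for 6 of the 10 genes. Larger and smaller here refer to the signed log2 fold change, spiny mouse minus mouse, not to its size. The difference was positive (larger in spiny mouse) for Adgre1, Csf1r, Cd68, Cd163 and Mrc1, and negative (smaller) for Arg1. Across the 13656 genes tested in both species 46.1% were called, 21.4% with a larger and 24.7% with a smaller change in spiny mouse. The larger changes were 46.4% of these calls, and 36.9%, 61.2% and 66.2% with DESeq2 size factors, upper-quartile scaling and library size alone. The mouse count moved with single libraries: it was 2 without untreated replicate 1, 5 without untreated replicate 2, and 1 without untreated replicate 3 or without treated replicate 1, 2 or 3. Without untreated mouse replicates 1 and 2 together the mouse count was 4 and the count of species differences was 6.

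**Figure D1:**
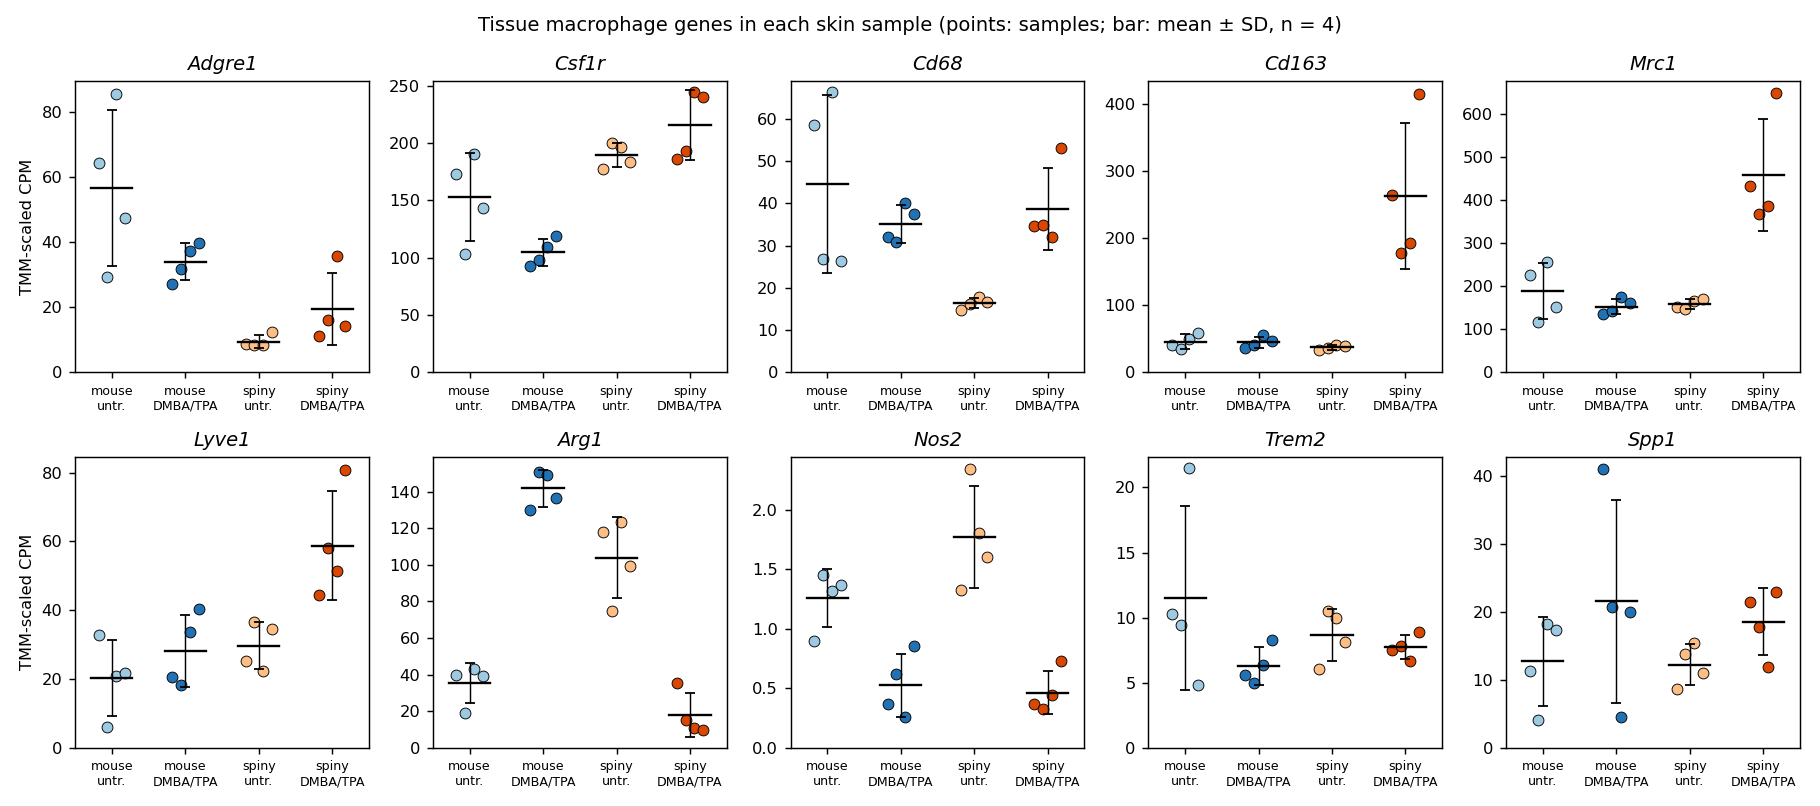
TMM-scaled CPM (vertical axes, linear, each from 0) of the 10 macrophage genes in every sample of the 4 groups. Points are samples, and bars with whiskers are the mean ± SD of 4 samples. Cd163 in treated spiny mouse skin lies between 178 and 415 CPM, above every other sample, and Arg1 changes in opposite directions in the 2 species.

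Among the pan-macrophage genes, Adgre1 and Csf1r fell in treated mouse skin, while Adgre1 and Cd68 rose in treated spiny mouse skin. Adgre1 (ENSMUSG00000004730, GRCm39 chr17:57665691-57790527, plus strand, and AcoCah2 scaffold_16:51155785-51247150) codes for the F4/80 antigen, a surface receptor used to recognise mouse macrophages. Its levels in untreated mouse replicates 1 to 4 were 64.4, 29.1, 85.6 and 47.3 CPM, and in treated mouse samples 27.0, 31.7, 37.4 and 39.7 CPM. Untreated replicates 1 and 3 were high and replicate 2 lay within the treated range, so the groups overlapped. The fall was 1.67-fold (log2 fold change -0.74 ± 0.29 SE, edgeR adjusted p = 0.0489). This call was lost without untreated replicate 1, 3 or 4 and without each treated replicate, with adjusted p from 0.0567 to 0.178.

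In spiny mouse, whose table was normalized separately, Adgre1 had 8.57, 8.17, 8.37 and 12.4 CPM untreated and 11.1, 16.1, 35.6 and 14.3 CPM treated. The lowest treated sample lay under the highest untreated one, and treated replicate 3 stood far above the rest. The rise was 2.06-fold (1.04 ± 0.34, edgeR adjusted p = 0.0271). It was 0.56 on the log2 scale without treated replicate 3, and the call was lost without untreated replicate 1, 2 or 3 (adjusted p 0.0607 to 0.0669). The difference between species was 1.78 ± 0.48 on the log2 scale (edgeR adjusted p = 0.0070).

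Csf1r (ENSMUSG00000024621, GRCm39 chr18:61233670-61265221, plus strand, and AcoCah2 scaffold_3:26708984-26733763) codes for the growth factor receptor on which macrophages depend. In mouse 15.1% of its exon bases lie in exons of a neighbouring gene, Hmgxb3, and the counting was not stated to use strand, so its mouse level is less certain. Untreated mouse samples had 173, 103, 191 and 144 CPM, and treated ones 92.6, 98.0, 109 and 119 CPM. Only untreated replicate 2 lay within the treated range. The fall was 1.46-fold (-0.55 ± 0.19, edgeR adjusted p = 0.0285). The call was lost without untreated replicate 1 or 3 and without treated replicate 1, 2 or 3, with adjusted p from 0.0661 to 0.107. In spiny mouse Csf1r had 178, 200, 197 and 184 CPM untreated and 186, 193, 244 and 240 CPM treated, and the change of 0.19 ± 0.10 did not pass (edgeR adjusted p = 0.141). Its species difference was 0.73 ± 0.22 (edgeR adjusted p = 0.0132).

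Cd68 (ENSMUSG00000018774, GRCm39 chr11:69555039-69556979, minus strand, and AcoCah2 scaffold_14:98822547-98824685) codes for a lysosomal membrane glycoprotein of phagocytes. In mouse its levels were 58.7, 26.7, 66.4 and 26.3 CPM untreated and 32.1, 30.7, 40.1 and 37.5 CPM treated. The untreated samples split into a high and a low pair on either side of the treated range, and the change of -0.34 ± 0.30 did not pass (edgeR adjusted p = 0.343). In spiny mouse it had 14.8, 16.2, 17.8 and 16.6 CPM untreated and 34.6, 35.0, 32.0 and 53.1 CPM treated, with no overlap. The rise was 2.36-fold (1.24 ± 0.16, edgeR adjusted p = 0.000218), and the species difference was 1.58 ± 0.37 (edgeR adjusted p = 0.0026).

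The 3 resident genes all rose in treated spiny mouse skin, and none passed the test in mouse, where 0 of 3 were called. Cd163 (ENSMUSG00000008845, GRCm39 chr6:124281615-124307486, plus strand, and AcoCah2 scaffold_4:22078309-22106262) codes for the scavenger receptor that takes up haemoglobin bound to haptoglobin. Untreated spiny mouse samples had 32.4, 35.5, 40.5 and 39.6 CPM, and treated ones 264, 178, 193 and 415 CPM. Every treated sample was above every untreated one, and treated replicate 4 was highest. The rise was 7.09-fold (2.83 ± 0.26, edgeR adjusted p = 4.51e-05). In mouse the levels were 40.5, 33.7, 49.0 and 58.4 CPM untreated and 35.7, 40.9, 55.1 and 46.2 CPM treated, with the groups fully interleaved. The mouse change was -0.03 ± 0.19 (edgeR adjusted p = 0.899), and its sign changed with the scaling of the libraries, being 0.07 with DESeq2 size factors. Between species the change differed by 2.86 ± 0.34 (edgeR adjusted p = 1.02e-05).

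Mrc1 (ENSMUSG00000026712, GRCm39 chr2:14234203-14336868, plus strand, and AcoCah2 scaffold_8:110331835-110412546) codes for the mannose receptor, CD206. In spiny mouse it had 152, 146, 166 and 171 CPM untreated and 433, 369, 385 and 651 CPM treated, again with no overlap and with treated replicate 4 highest. This was a 2.90-fold rise (1.53 ± 0.17, edgeR adjusted p = 0.000119). In mouse it had 227, 116, 257 and 151 CPM untreated and 135, 141, 174 and 160 CPM treated. The mouse change was -0.30 ± 0.24 (edgeR adjusted p = 0.288), and without untreated replicate 2, the lowest sample, it passed as a fall of 0.38 on the log2 scale (adjusted p = 0.0407). The changes of the 2 species differed by 1.84 ± 0.31 (edgeR adjusted p = 0.000233).

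Lyve1 (ENSMUSG00000030787, GRCm39 chr7:110449814-110462446, minus strand, and AcoCah2 scaffold_12:8550056-8562599) codes for a hyaluronan receptor of lymphatic endothelium that a perivascular class of macrophages also carries. In spiny mouse its levels were 25.3, 36.6, 22.4 and 34.5 CPM untreated and 44.5, 58.2, 51.4 and 80.9 CPM treated, without overlap. The rise was 1.98-fold (0.99 ± 0.21, edgeR adjusted p = 0.0037). In mouse it had 32.7, 5.92, 21.0 and 21.6 CPM untreated and 20.5, 18.1, 33.5 and 40.2 CPM treated. Untreated replicate 2 was far below the rest, and the change of 0.47 ± 0.44 did not pass (edgeR adjusted p = 0.380). The species difference of 0.52 ± 0.53 was not called (edgeR adjusted p = 0.448).

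Lymphatic endothelium shares Lyve1 and Mrc1 with macrophages. The summed level of 6 other lymphatic genes was 61.6 to 80.7 CPM in untreated and 119 to 175 CPM in treated spiny mouse skin, with Ccl21a at 0 counts in every spiny mouse sample. Pdpn, which other cells also make, carried most of that difference, with a mean of 17.4 CPM untreated and 72.0 CPM treated. Of the 5 lymphatic genes tested there, Flt4 and Pdpn were called higher and Reln lower. Prox1, the defining transcription factor of lymphatic endothelium, had a log2 change of -0.01 (edgeR adjusted p = 0.972). In mouse the sums were 108.2 to 198 CPM untreated and 107 to 151 CPM treated, and 4 of 6 genes fell. The part of lymphatic vessels in the Lyve1 and Mrc1 results was not tested.

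Among the genes of activated macrophages, Arg1 went in opposite directions in the 2 species, Nos2 fell in both, and neither Trem2 nor Spp1 passed the test in either. Arg1 (ENSMUSG00000019987, GRCm39 chr10:24791119-24803382, minus strand, and AcoCah2 scaffold_10:92266481-92278190) codes for arginase 1. Untreated mouse samples had 39.9, 18.9, 42.9 and 39.2 CPM, and treated ones 130, 151, 149 and 137 CPM. Every treated sample was more than 3 times the highest untreated one. The rise was 4.03-fold (2.01 ± 0.23, edgeR adjusted p = 0.000116). Spiny mouse samples had 118, 74.6, 124 and 99.1 CPM untreated and 35.4, 15.3, 10.6 and 9.46 CPM treated. Untreated spiny mouse skin was thus near the treated mouse level, and treated spiny mouse skin at or under the untreated mouse level, although levels from separately scaled tables are set side by side here as a description only. The spiny mouse fall was 5.88-fold (-2.56 ± 0.40, edgeR adjusted p = 0.000708).

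The species difference of Arg1 was -4.56 ± 0.50 on the log2 scale (edgeR adjusted p = 5.36e-06), the largest in size among the 10 genes. It stayed called in all 26 alternative fits, from -5.14 to -4.35. Arg1 is also made by hepatocytes, by keratinocytes and by other myeloid cells. In untreated mouse replicate 1, where hepatocyte transcripts were high, Arg1 had 39.9 CPM, close to the 42.9 and 39.2 CPM of replicates 3 and 4. Keratinocyte transcripts summed to 6500 to 12894 CPM untreated and 19577 to 28171 CPM treated in mouse. In spiny mouse the sums were 12883 to 16168 and 22895 to 29407 CPM. Of the 6 keratinocyte genes, 3 were called higher in mouse (Krt5, Krt14 and Krt1) and 4 in spiny mouse (the same and Itga6). Transcripts listed as neutrophil markers summed to 9.47 to 37.7 CPM untreated and 844 to 1747 CPM treated in mouse. In spiny mouse the sums were 72.7 to 111 and 2210 to 2570 CPM. S100a8 and S100a9 carried most of the treated sums, with means of 716 and 584 CPM in mouse and 1681 and 649 CPM in spiny mouse. The sums thus mostly follow these 2 genes and do not measure the number of neutrophils. Which cells made S100a8 and S100a9 was not tested. Csf3r and Cxcr2 went from 6.05 to 10.5 and from 1.91 to 13.4 CPM in mouse. In spiny mouse they went from 7.43 to 43.5 and from 0.78 to 14.9 CPM. All 4 genes tested in mouse rose, and in spiny mouse 6 of 7 rose and Camp fell. Ly6g, a neutrophil marker, was at 0 counts in all treated mouse samples. Hair follicle transcripts were higher in all treated than in all untreated mouse samples, and in spiny mouse the groups overlapped, with the values given above. The part of these cell types in the Arg1 result was not tested.

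Nos2 (ENSMUSG00000020826, GRCm39 chr11:78811613-78851080, plus strand, and AcoCah2 scaffold_9:41819214-41860841) codes for inducible nitric oxide synthase and was close to the limit of detection. Its mouse counts were 22, 33, 36 and 30 untreated and 7, 14, 7 and 23 treated, or 0.90, 1.45, 1.32 and 1.37 against 0.37, 0.62, 0.25 and 0.85 CPM. The groups did not overlap, but the highest treated sample was just under the lowest untreated one. The fall was 2.38-fold (-1.25 ± 0.39, edgeR adjusted p = 0.0192). It was lost without untreated replicate 3 and without treated replicate 1, 2 or 3 (adjusted p 0.0515 to 0.0588). Spiny mouse counts were 39, 59, 53 and 35 untreated and 8, 9, 12 and 16 treated, or 1.33, 2.34, 1.80 and 1.60 against 0.36, 0.32, 0.44 and 0.73 CPM. This fall was 3.82-fold (-1.93 ± 0.30, edgeR adjusted p = 0.000633). The species difference of -0.69 ± 0.49 was not called (edgeR adjusted p = 0.262).

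Trem2 (ENSMUSG00000023992, GRCm39 chr17:48653429-48661175, plus strand, and AcoCah2 scaffold_7:32449670-32455678) codes for a lipid-sensing receptor of macrophages that clear debris. In mouse it had 10.3, 9.43, 21.5 and 4.78 CPM untreated and 5.57, 4.97, 6.37 and 8.28 CPM treated. The untreated samples spread widely around the treated range, and the change of -0.87 ± 0.39 did not pass (edgeR adjusted p = 0.0815). Without untreated replicate 4, the lowest sample, both the mouse fall (adjusted p = 0.0160) and the species difference (adjusted p = 0.0493) were called. In spiny mouse it had 6.02, 10.5, 9.94 and 8.14 CPM untreated and 7.51, 7.79, 6.70 and 8.91 CPM treated, with a change of -0.16 ± 0.18 (edgeR adjusted p = 0.459). Over all samples its species difference was 0.71 ± 0.46 (edgeR adjusted p = 0.225).

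Spp1 (ENSMUSG00000029304, GRCm39 chr5:104582984-104588916, plus strand, and AcoCah2 scaffold_16:3873307-3880340) codes for osteopontin, a secreted ligand of integrins and CD44. In mouse 18.8% of its exon bases are shared with the overlapping gene model Gm42793. Untreated mouse samples had 11.3, 4.03, 18.2 and 17.4 CPM and treated ones 41.0, 20.7, 4.55 and 20.0 CPM. Treated replicates 1 and 3 held the highest and nearly the lowest value of the 8 samples, and the change of 0.75 ± 0.61 did not pass (edgeR adjusted p = 0.300). Spiny mouse samples had 8.71, 13.8, 15.5 and 11.1 CPM untreated and 21.5, 17.8, 11.9 and 23.0 CPM treated, with a change of 0.59 ± 0.23 just outside the threshold (edgeR adjusted p = 0.0518). Without untreated replicate 3 or treated replicate 3 that rise passed (adjusted p = 0.0320 and 0.0106). The species difference of -0.16 ± 0.70 was not called (edgeR adjusted p = 0.872), and its sign changed between alternatives.

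**Figure D2:**
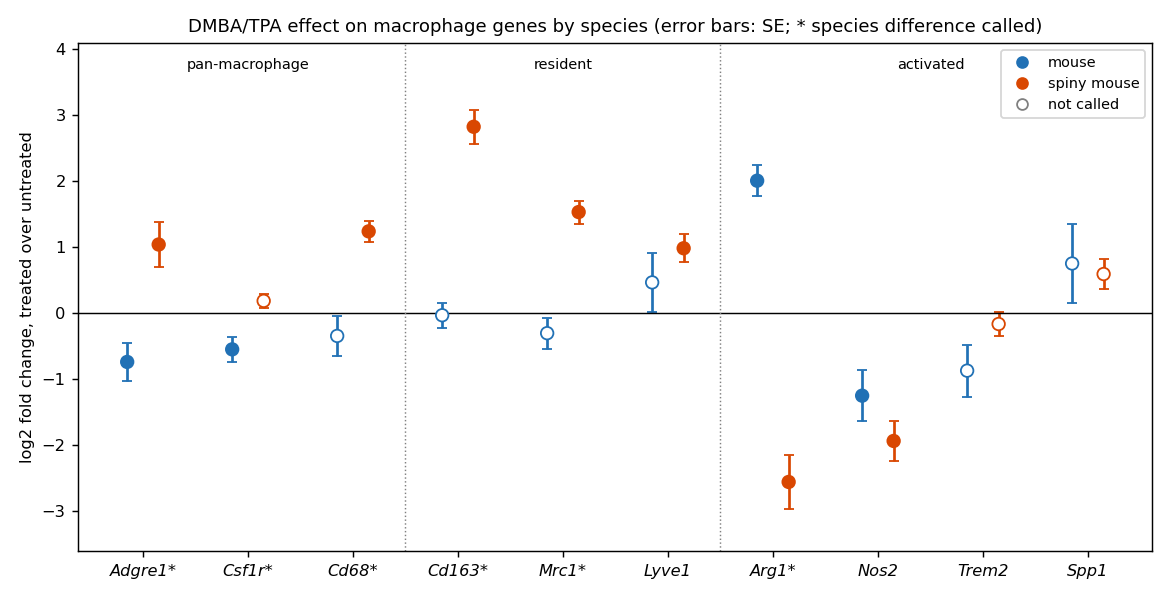
Log2 fold change of each gene, treated over untreated (vertical axis), in mouse (blue) and spiny mouse (orange), with whiskers for 1 SE from the edgeR fit of 4 against 4 samples. Filled points passed an adjusted p of 0.05, and stars mark the 6 genes whose change differed between species; resident genes lie between 0.99 and 2.83 in spiny mouse and between -0.30 and 0.47 in mouse.

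Sample ranges were compared as well. Groups did not overlap for Arg1 and Nos2 in mouse, where 58.6% of all genes tested were without overlap. In spiny mouse they did not overlap for 6 genes (Cd68, Cd163, Mrc1, Lyve1, Arg1 and Nos2), where 50.9% of all genes were without overlap. Single libraries ran high or low across several genes. Untreated mouse replicate 3 had the highest level of its group for 7 of the 10 genes and replicate 2 the lowest for 7. Treated spiny mouse replicate 4 was highest of its group for 7.

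Ratios to Csf1r within a sample describe each marker relative to another macrophage gene. They are free of the overall amount of macrophage RNA only where both genes come from macrophages. Arg1, Lyve1 and Mrc1 are also made by other cells, as given above, so their ratios can move with tissue content. In mouse the exon bases that Csf1r shares with Hmgxb3 also make the reference less certain. They are log2 ratios of counts with 2 counts added, and are given without a test. With Csf1r as the reference, the Arg1 ratio alone separated the groups in mouse, at -2.44 to -1.87 untreated and 0.20 to 0.62 treated. In spiny mouse 6 ratios separated them. The Cd163 ratio went from -2.49 to -2.21 untreated to -0.34 to 0.79 treated, so that Cd163 counts came to match those of Csf1r. The mean Mrc1 ratio was higher by 1.32 after treatment, that of Cd68 by 1.03 and that of Lyve1 by 0.80. The treated minus untreated difference was -2.91 for the Arg1 ratio and -1.97 for the Nos2 ratio.

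The choice of reference gene mattered for part of this. Against Cd68 in place of Csf1r the spiny mouse differences of the ratios of Cd163, Mrc1 and Arg1 were 1.53, 0.29 and -3.94, still without overlap. Lyve1 against Cd68 differed by -0.24, the opposite sign, with overlapping groups. Trem2, which differed by -0.31 with overlap against Csf1r, differed by -1.35 without overlap against Cd68, and Spp1 went from 0.41 to -0.63, with overlap in both. Against Adgre1, which was variable in treated spiny mouse skin, Cd163 differed by 1.84 and Arg1 by -3.63 without overlap, and Mrc1 by 0.59 with overlap. In mouse the groups separated against Adgre1 for Cd68 (0.42), Mrc1 (0.41), Lyve1 (1.27) and Arg1 (2.72), and against Cd68 for Arg1 (2.29) and Adgre1 (-0.42).

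**Figure D3:**
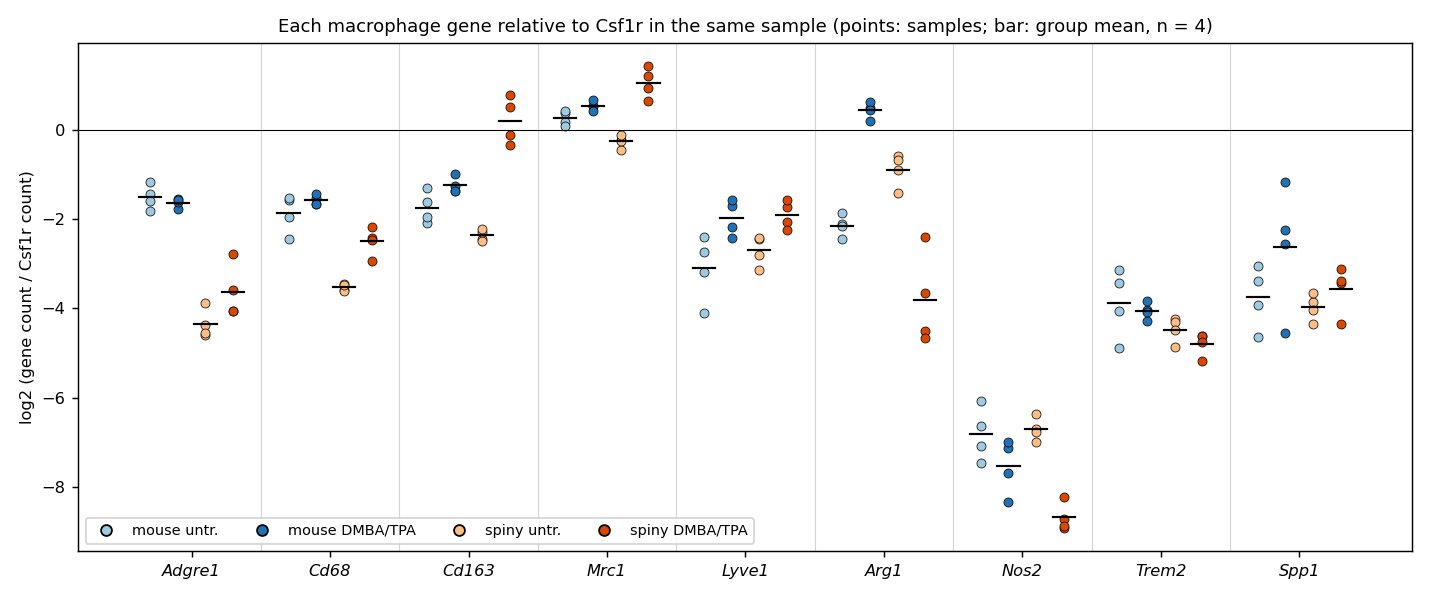
Log2 ratio of the count of each gene to the count of Csf1r in the same sample, with 2 added to both counts (vertical axis). Points are samples and bars are means of 4 samples; in spiny mouse the Cd163 points move from under -2.21 to around 0 on treatment, and the Arg1 points from between -1.42 and -0.59 to between -4.66 and -2.39.

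To compare levels between genes, CPM was divided by the deposited gene length in kilobases. In untreated mouse skin the order was led by Cd68, Mrc1 and Csf1r at 35.4 ± 16.7, 29.5 ± 10.2 and 26.5 ± 6.66 CPM per kilobase (SD, n = 4), whose sample ranges overlapped from each gene to the next. Adgre1 (17.5), Arg1 (15.8), Cd163 (8.31), Spp1 (7.72), Lyve1 (6.96) and Trem2 (2.32) followed, each overlapping its neighbour. In treated mouse skin Arg1 stood first at 63.6 ± 4.50 CPM per kilobase, without overlap with Cd68 at 27.9 ± 3.52. Mrc1 (23.9) overlapped Cd68 and lay above Csf1r (18.1) without overlap. Spp1, Adgre1, Lyve1 and Cd163 then lay between 13.1 and 8.14 CPM per kilobase with overlapping ranges, above Trem2 (1.27).

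In untreated spiny mouse skin Arg1 led at 70.4 ± 15 CPM per kilobase, followed without overlap by Csf1r at 47.3 ± 2.64, Mrc1 at 29.8 ± 2.18 and Cd68 at 12.9 ± 0.98. Lyve1 (10.6), Cd163 (7.78), Trem2 (7.49) and Spp1 (7.41) overlapped one with the next, and Adgre1 (2.82) lay under them. After treatment the order was led by Mrc1 at 86.4 ± 24.5, Cd163 at 55.2 ± 22.9 and Csf1r at 53.8 ± 7.63 CPM per kilobase, each overlapping its neighbour. Cd68 (30.6) came next without overlap with Csf1r, then Lyve1 (20.9), Arg1 (12.0), Spp1 (11.2), Trem2 (6.69) and Adgre1 (5.78) with overlapping neighbours. Nos2 was last in every group, at 0.11 to 0.41 CPM per kilobase on average. The listed Trem2 length differs between the tables, 4946 bases in mouse and 1154 in spiny mouse, so its level per length is not comparable between species. The place of Trem2 in the order within mouse also depends on that listed length.

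Other genes of macrophage biology were read from 7 lists of 90 genes in all. In mouse 37 of 86 tested genes were called, 18 higher and 19 lower, with a median log2 fold change of -0.27, where 61.2% of all genes were called (25.9% higher and 35.3% lower). In spiny mouse 58 of 81 were called, 43 higher and 15 lower, with a median of 0.51, where 55.1% of all genes were called (28.2% higher and 26.9% lower). The species difference was called for 51 of 78, with 35 larger and 16 smaller in spiny mouse and a median of 0.65, beside -0.03 over all genes tested, of which 46.1% were called (21.4% larger and 24.7% smaller). The counts of each list below are to be read against these shares, and a count near them is not a result about the list.

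The first list held genes of macrophage and monocyte identity. In spiny mouse 10 of 17 tested genes rose and 1 fell, with a median of 0.85. Ms4a7, a membrane protein of macrophages, rose from 6.08 ± 2.24 to 36.0 ± 7.45 CPM (SD, n = 4), Fcgr3, a receptor for antibodies, from 30.3 ± 4.51 to 123 ± 23.2, and Fcer1g, its signalling chain, from 17.9 ± 3.69 to 63.0 ± 16.2. Cx3cr1, the fractalkine receptor, was the gene that fell, from 4.56 ± 1.05 to 2.34 ± 0.83 CPM. In mouse 2 of 18 fell and none rose, with a median of -0.48. Those were Cx3cr1, from 3.10 ± 0.34 to 1.54 ± 0.68 CPM, and Mertk, a receptor for the uptake of dying cells, with a log2 change of -0.45. The mouse count moved with single libraries: it was 8, all lower, without untreated replicate 2, 7 without untreated replicates 1 and 2, 4 without untreated replicate 4, 1 without untreated replicate 3 or treated replicate 1 or 4, and 0 without treated replicate 2 or 3. A species difference was called for 9 of 17, all larger in spiny mouse.

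A further list of resident-type genes did not follow Cd163, Mrc1 and Lyve1 in spiny mouse. Of 11 tested there 1 rose and 7 fell, with a median of -0.67. Cd209d, a lectin of the DC-SIGN family, rose from 40.2 ± 4.36 to 82.3 ± 27.6 CPM. Cbr2, a carbonyl reductase found in resident macrophages, fell from 22.0 ± 2.65 to 10.2 ± 3.99 CPM, Vsig4, a complement receptor, from 7.45 ± 1.59 to 3.85 ± 1.42, and F13a1, a chain of coagulation factor XIII, from 157 ± 26.4 to 86.4 ± 23.8. Without untreated replicate 4, 4 fell in place of 7. In mouse 1 of 15 rose (Maf, a transcription factor, with a log2 change of 0.36) and 6 fell, with a median of -0.70. Mgl2 and Clec10a, lectins that bind galactose, fell from 34.4 ± 12.1 to 12.2 ± 1.98 and from 48.7 ± 15 to 26.2 ± 5.54 CPM, and Gas6, a ligand of Mertk, from 444 ± 102 to 244 ± 30.0 CPM. Without untreated replicate 2, or without replicates 1 and 2 together, 9 fell and 2 rose. Species differences were called for 5 of 11, 1 larger and 4 smaller in spiny mouse, a share near the 46.1% of all genes.

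Genes of inflammatory or alternative activation had the largest median species difference of the 7 lists, 1.66 on the log2 scale. All 12 tested in spiny mouse rose, with a median of 1.74. Retnla and Chil3, the list's genes of alternative activation, were not tested there, so the count does not speak for alternative activation. Il6, an inflammatory cytokine, rose from 1.48 ± 0.40 to 30.8 ± 8.56 CPM, Il1b, another, from 5.30 ± 1.93 to 90.6 ± 18.8, and Acod1, the enzyme that makes itaconate, from 0.23 ± 0.11 to 3.82 ± 2.46. In mouse 1 of 12 rose (Cxcl9, a chemokine, with a log2 change of 1.21) and 3 fell, with a median of -0.29. Retnla, a marker of alternative activation, fell from 68.6 ± 38.9 to 12.4 ± 4.50 CPM, Irf1, an interferon-response factor, from 26.4 ± 5.19 to 16.4 ± 1.85, and Cd86, a costimulatory ligand for T cells, by 0.88 on the log2 scale. Without untreated replicate 2, 5 mouse genes fell and 2 rose. For 9 of 10 genes the species difference was called, all larger in spiny mouse. Neutrophils and keratinocytes also make several of these products, and the part of either cell type in these values was not tested.

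Lipid-associated and lysosomal genes, the company in which Trem2 and Spp1 are often reported, were mixed. In mouse 5 of 12 rose and 1 fell. Fabp5, a fatty acid carrier, rose from 347 ± 112 to 2566 ± 357 CPM, and the lysosomal proteases Ctsd and Ctsb rose from 374 ± 115 to 889 ± 29.3 and from 753 ± 248 to 1582 ± 113. In spiny mouse 4 of 11 rose and 3 fell. Fabp5 rose from 832 ± 142 to 2864 ± 545 CPM. Ctsd and Ctsb were called higher here as well, Ctsd from 916 ± 78.8 to 1446 ± 141 CPM and Ctsb with a log2 change of 0.36. Lpl, Gpnmb and Apoe, genes of lipid uptake and transport and of lipid-laden macrophages, fell from 864 ± 75.7 to 328 ± 69.1, from 230 ± 67.1 to 133 ± 10.4 and from 2544 ± 248 to 1627 ± 191. Gpnmb and Apoe rose in mouse, with log2 changes of 0.92 and 0.68, and their species differences of -1.70 and -1.33 were called (edgeR adjusted p = 0.00095 and 0.000152). In all, the difference was called for 5 of 11, 1 larger and 4 smaller in spiny mouse, a share near the 46.1% of all genes. It was called for 3, all smaller, without untreated mouse replicate 4, treated mouse replicate 1 or treated spiny mouse replicate 2. Lpl is also a main gene of fat cells, and adipocyte transcripts summed to 1152 to 1304 CPM untreated and 576 to 849 CPM treated in spiny mouse, where 3 of 5 adipocyte genes (Adipoq, Plin1 and Lep) fell, and to 193 to 834 and 220 to 384 CPM in mouse, where 2 of 5 fell. None of the 5 was at 0 counts through a group. The part of fat cells in these results was not tested, nor was which cells of the skin made Fabp5, Gpnmb and the other genes of this list.

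The ligands of CSF1R differed from each other. Il34, which keratinocytes make, fell in both species, from 40.6 ± 11 to 9.49 ± 0.93 CPM in mouse and from 58.3 ± 10.1 to 23.0 ± 1.42 CPM in spiny mouse. Csf1 fell in mouse, from 61.2 ± 8.89 to 40.7 ± 3.98 CPM, and its spiny mouse change of 0.40 did not pass (edgeR adjusted p = 0.129). The receptor chains for the related cytokine GM-CSF rose in spiny mouse: Csf2rb from 29.1 ± 3.5 to 209 ± 69.6 CPM and Csf2ra from 17.1 ± 1.88 to 49.2 ± 12.2 CPM. Spi1, the gene of PU.1, rose there as well, from 19.1 ± 2.45 to 37.7 ± 7.46 CPM, and had a log2 change of -0.48 in mouse that did not pass (edgeR adjusted p = 0.183). In mouse Csf2ra fell from 22.6 ± 3.37 to 12.5 ± 2.32 CPM, whereas the transcription factors Cebpb and Runx1, which are not limited to macrophages, rose from 93.7 ± 35.1 to 205 ± 12.2 and from 63.4 ± 19.7 to 135 ± 2.14 CPM. In this list of ligands and factors 7 of 11 rose and 1 fell in spiny mouse, 3 of 10 rose and 4 fell in mouse, and 8 of 10 species differences were called, 6 larger in spiny mouse.

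Of the genes that handle arginine or nitric oxide beside Arg1 and Nos2, 6 of 9 rose and 2 fell in mouse, with a median of 1.15. Ass1 and Asl, which rebuild arginine from citrulline, rose from 26.1 ± 7.36 to 175 ± 7.13 and from 12.8 ± 1.37 to 33.7 ± 1.55 CPM, and Slc7a1, an arginine transporter, from 36.5 ± 16.2 to 172 ± 8.71. Slc7a2, the transporter often linked to macrophage activation, fell from 48.8 ± 9.29 to 22.3 ± 1.94 CPM. Nos1, the neuronal nitric oxide synthase, fell from 51.8 ± 14 to 11.6 ± 1.41 CPM. In spiny mouse 1 of 9 rose and 2 fell, with a median of -0.08. Gch1, which makes the cofactor of nitric oxide synthases, rose from 15.5 ± 2.30 to 40.1 ± 2.67 CPM, and Nos1 fell from 25.1 ± 2.90 to 11.6 ± 3.82 CPM. Skeletal muscle is a main site of Nos1, and muscle transcripts summed to 8245 to 10165 CPM untreated and 1864 to 2466 CPM treated in mouse, where 6 of 6 muscle genes fell, and to 9713 to 12454 and 3251 to 6681 CPM in spiny mouse, where 5 of 5 tested fell. The part of muscle in the Nos1 falls was not tested, nor was which cells of the skin made the other genes of this list. Odc1, the first enzyme of polyamine synthesis, was the other gene that fell in spiny mouse, by 0.54 on the log2 scale. In mouse it rose by 0.75, and its species difference of -1.29 was called (edgeR adjusted p = 0.000233). Without untreated spiny mouse replicate 3, 4 fell. In 7 of 9 genes the species difference was called, with 5 smaller in spiny mouse, among them Ass1 at -2.66, Slc7a1 at -2.48 and Asl at -1.80. Arg2, the mitochondrial arginase, named after its values were seen because of its relation to Arg1, rose in mouse with a log2 change of 1.15, and its spiny mouse change of 0.41 did not pass (edgeR adjusted p = 0.0801).

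Partners of TREM2 and osteopontin were read because Trem2 and Spp1 themselves did not pass in either species. In spiny mouse 8 of 10 rose and 1 fell, with a median of 0.71. The integrin genes Itga4, Itgb3 and Itgb1 rose from 18.7 ± 1.74 to 42.6 ± 6.53, from 7.44 ± 0.82 to 16.4 ± 3.40 and from 283 ± 11.9 to 560 ± 68.6 CPM, and Itgb5 fell from 170 ± 15.5 to 137 ± 13.5 CPM. In mouse 2 of 10 rose and 1 fell, with a median of 0.04. Cd44, an osteopontin receptor, rose from 220 ± 6.16 to 462 ± 39.4 CPM, Plcg2, an enzyme of TREM2 signalling, from 36.4 ± 3.71 to 58.9 ± 3.13, and Itga4 fell from 20.6 ± 3.06 to 11.2 ± 0.44. Without untreated mouse replicate 4 the count was 5, with 3 lower. The species difference was called for 8 of 10, 7 larger and 1 smaller in spiny mouse, with Itga4 at 2.06. Which cells of the skin made these partner genes was not tested.

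**Figure D4:**
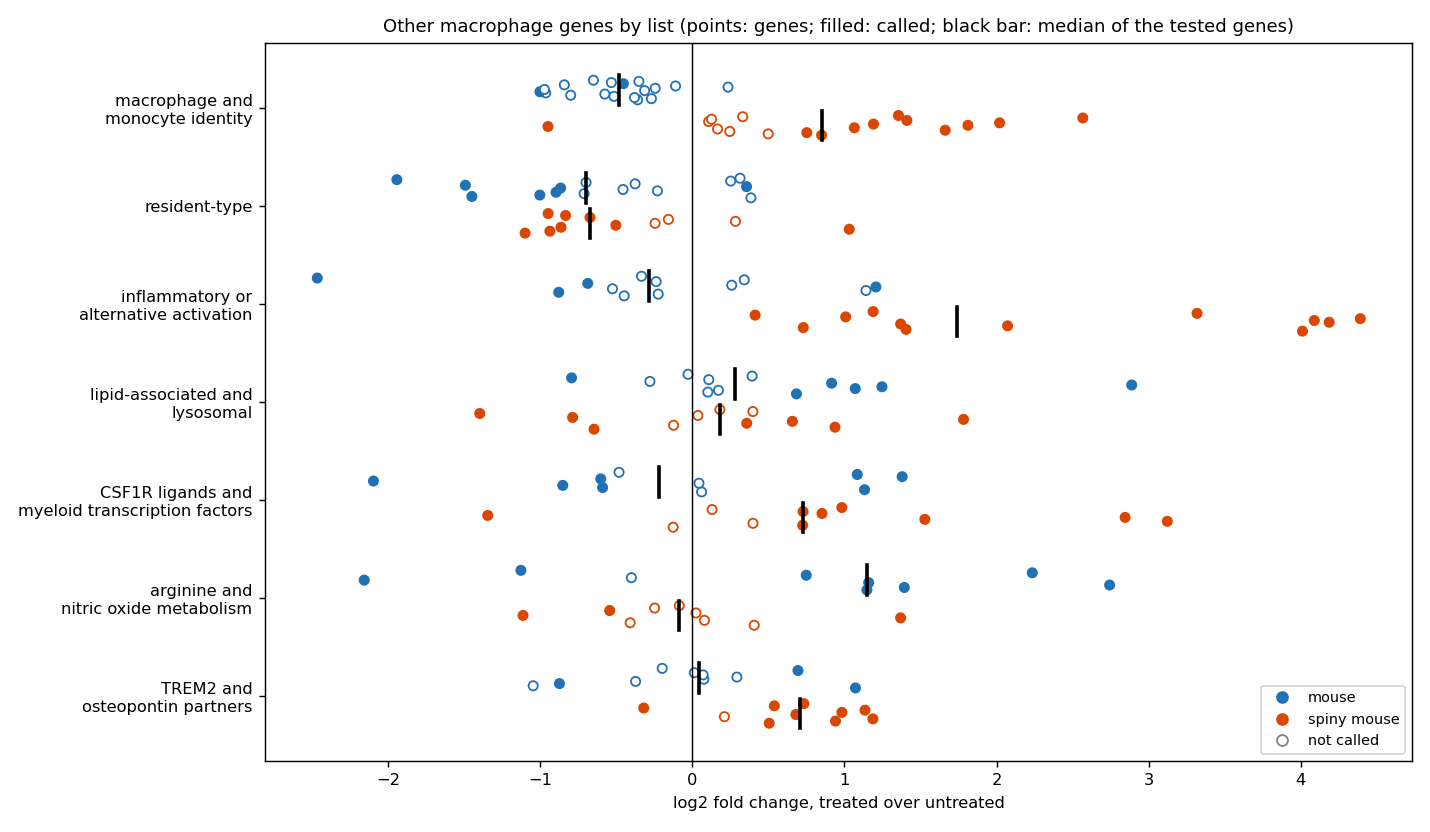
Log2 fold change, treated over untreated (horizontal axis), of the genes of 7 lists in mouse (blue) and spiny mouse (orange), from edgeR fits of 4 against 4 samples. Points are genes, filled where the adjusted p was under 0.05, and black bars are list medians; the medians of the activation list are -0.29 in mouse and 1.74 in spiny mouse.

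Dendritic cells share genes with macrophages. The summed level of 7 Langerhans and dendritic cell genes was 99.2 to 175 CPM untreated and 211 to 239 CPM treated in mouse, and 225 to 276 and 265 to 404 CPM in spiny mouse. None of the 7 was at 0 counts through a group. The sums do not follow most of the genes. In mouse all 7 were called, 5 lower and 2 higher (Epcam and Ccr7). In spiny mouse 3 were called lower and 2 higher (Cd209a and Ccr7). Epcam, also an epithelial gene, made up much of these sums in mouse and rose from 106 to 209 CPM on average. In spiny mouse Epcam fell from 144 to 89.1 CPM. Cd207, which marks Langerhans cells, fell from 15.3 to 3.95 CPM in mouse and from 4.81 to 3.23 CPM in spiny mouse. Cd209a, a marker of monocyte-derived dendritic cells, fell in mouse (16.1 to 6.0 CPM) but rose in spiny mouse (86.1 to 204 CPM). Summed T cell transcripts were 16.4 to 26.9 CPM untreated and 8.09 to 10.5 CPM treated in mouse, and 27.7 to 45.3 and 47.7 to 95.3 CPM in spiny mouse. The part of these cells in the macrophage gene results was not tested.

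Across the 16 samples, after removing the mean of each species from log2 CPM, the genes most like each macrophage gene were read from 9935 candidates. They are given as descriptions, since the samples share treatment groups and libraries. Csf1r was most like H2-Eb1 (Pearson r = 0.95) and H2-Aa, genes of antigen presentation by MHC class II. Cd68 and Mrc1 were both most like Plek (r = 0.95 and 0.97), the gene of pleckstrin in platelets and leukocytes. Cd163 was most like Csf2rb (r = 0.97). Adgre1 was most like Ifi47 (r = 0.91), an interferon-induced GTPase, and Lyve1 like Cebpd (r = 0.94), a transcription factor gene. Arg1 was most like Ppp1r14c (r = 0.95), a phosphatase inhibitor, with Cdr2 and Ddr1 next. Nos2 was most like Asb1 (r = 0.92), Trem2 like Mff (r = 0.85) and Spp1 like Wdfy2 (r = 0.82).

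Within groups, with the mean of each group removed, several macrophage genes moved together from sample to sample. Cd68 and Mrc1 had a Pearson r of 0.93 over the 16 samples, and Csf1r had 0.80 with Lyve1, 0.79 with Mrc1, 0.77 with Adgre1 and 0.76 with Cd68. Cd163 followed Mrc1 less closely, at 0.66. Arg1 had no r above 0.28 with any of the other 9 genes within groups, and -0.41 with Nos2. Samples of a group also differed in tissue content, as given above, and these values are given without a test.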

How the data were processed

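PolyA RNA of 16 skin samples was sequenced from stranded mRNA libraries, per the labels' protocols. The submitters' processing notes name Trim Galore, HISAT2 and featureCounts. Per the file headers, the authors deposited whole-number counts of read pairs per gene: the mouse table was counted with featureCounts 2.0.3 on GRCm39 with Ensembl 108 and without a strand option, and the spiny mouse table names AcoCah2. Reads of genes that overlap on opposite strands can therefore be mixed. Mouse IDs were given symbols from GENCODE M39 (56210 of 56980 matched), and the spiny mouse table (19818 rows) gives symbols itself.

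In each species edgeR 4.0.16 (R 4.3.3) was run on all genes: filterByExpr, TMM scaling, the quasi-likelihood test and Benjamini-Hochberg adjustment, called at 0.05. The species difference was the interaction term over symbols passing in both. SE is the absolute log2 fold change over the square root of F, and log2 CPM used a prior count of 2. These edgeR tests, within each species and of the species difference, were tried on simulated data, and the alternatives named next were not. Alternatives were other scalings, DESeq2 1.42.0, limma-voom (limma 3.58.1), other filters on low counts, a replicate term and each sample left out. Leaving out untreated mouse replicates 1 and 2 together was added after the data were seen.

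The 10 genes and all lists were chosen with earlier results of these data known. From each list the text names, per species, up to 3 called genes each way with the largest change, no overlap between groups and an average log2 CPM of at least 1, or other genes to complete a count of 5 or fewer. A gene that this rule names is not reported here. For likeness, the 3 highest correlations among genes with a log2 CPM of at least 3 were read. With 24 pairs of replicates compared over genes with at least 20 summed counts, chi-square per degree of freedom was 11.4 to 166, so none were duplicates within sampling noise. A level of 0 to 3 counts is at the limit of detection, for counting error only.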

Additional observations from a re-analysis of the deposited data

Results flagged for a closer look

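In 3 of 40 combinations of gene and group, 1 sample lay far from the other 3, by the critical value of Dixon's ratio of gap to range; chance alone flags about 1 in 20 groups. Adgre1 was highest in untreated spiny mouse replicate 4, at 12.4 CPM against 8.17 to 8.57 CPM in the others. Arg1 was lowest in untreated mouse replicate 2, at 18.9 CPM against 39.2 to 42.9 CPM, the library with 2265 CPM of hair follicle transcripts. Cd68 was highest in treated spiny mouse replicate 4, at 53.1 CPM against 32.0 to 35.0 CPM, the library that was highest of its group for 7 of the 10 genes.

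The change on treatment differed between the species for 6 genes by the edgeR interaction test. The difference in log2 fold change, spiny mouse minus mouse, was 1.78 for Adgre1, 0.73 for Csf1r, 1.58 for Cd68, 2.86 for Cd163, 1.84 for Mrc1 and -4.56 for Arg1. Arg1 and Adgre1 were called in both species in opposite directions, and the mouse call of Adgre1 (adjusted p = 0.0489) was lost without untreated replicate 1, 3 or 4 or any treated replicate.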

How the results depend on the processing

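The number of macrophage genes called in mouse was 4, and it was 1 with no filter on low counts and 1 to 5 when each sample was left out. In spiny mouse it was 7, with 6 to 8 over samples left out, and the species difference was called for 6, with 6 to 7. The 6 called differences were called in all 26 alternatives. Whether replicate numbers pair the samples is not stated by the labels. The mean correlation of same-numbered deviations was 0.009 in mouse and -0.355 in spiny mouse, beside -0.003 and 0.119 for other pairs. Such correlations cannot settle the pairing, because they do not show where samples came from. With the replicate block 3, 6 and 6 genes were called in mouse, spiny mouse and for the difference. The mouse fall of Adgre1 was lost in 12 of 18 alternatives, that of Csf1r in 6 and that of Nos2 in 5, and the spiny mouse rise of Adgre1 in 4 of 17. Gains were Trem2 in mouse with upper-quartile scaling (adjusted p = 0.0402) or library size alone (0.0368), and Spp1 in spiny mouse with the DESeq2 Wald test (0.0217) or no filter (0.0465).

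Some values changed sign. The mouse change of Cd163 was 0.0673 with DESeq2 size factors and with the DESeq2 Wald test, 0.115 with no filter and -0.126 to 0.121 over samples left out, positive without untreated replicate 3 or 4 or treated replicate 1 or 2. The species difference of Spp1 was 0.0431 with library size alone, 0.0532 with limma-voom, 0.220 without untreated mouse replicates 1 and 2 together and -0.518 to 0.331 over samples left out, positive without untreated mouse replicate 2, treated mouse replicate 1 or treated spiny mouse replicate 3. The spiny mouse difference of the Lyve1 ratio, 0.80 against Csf1r, was -0.24 against Cd68. The cause of these changes was not tested. Of the list counts, macrophage identity in mouse moved most with the setting, from 2 to 1 with DESeq2 size factors, limma-voom, no filter or the replicate block, and to 6 and 7 with upper-quartile scaling and library size alone. Partners of TREM2 and osteopontin were 5 in place of 3 in mouse with library size alone, and lipid-associated species differences 3 in place of 5 with the replicate block. The partners' mouse median was -0.16 with upper-quartile scaling and -0.19 with library size alone, and that of the CSF1R ligands and factors 0.19 with no filter. Scaling moved the median of all mouse genes from -0.15 by 0.10 with DESeq2 size factors, -0.20 with upper-quartile scaling and -0.24 with library size alone, and the higher share of mouse calls from 42.4% to 48.4%, 30.5% and 28.6%. For the species difference that share was 46.4%, and 36.9%, 61.2% and 66.2% with the same scalings. Nos2, at 7 to 59 counts, is limited by depth.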
